A study of Mus musculus with 12 samples.

Results

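The genes described here encode Sprouty and Spred proteins, which restrain signalling from receptor tyrosine kinases. The 5 members are Spry1, Spry2, Spry4, Spred1 and Spred2. They were chosen by gene symbol with earlier results of these arrays known, among them the large Spry4 difference under actinomycin D. All group differences of these genes count as used in that choice, so their values are a description with no test, and no p-value is given for them. All 5 had a ratio on every array and stand among 16549 such genes. They were read by 10 features of the array, of which 9 held a ratio on all 12 arrays.

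Receptor tyrosine kinases such as the receptors for EGF, FGF and insulin activate RAS, which starts the RAF, MEK and ERK kinase cascade. ERK signalling induces transcription of Sprouty genes, whose products then dampen the cascade at the level of GRB2, RAS or RAF, and so form a feedback loop. Spred proteins act at the membrane, where they bring the RAS inhibitor neurofibromin to RAS. In liver these receptors drive hepatocyte growth and regeneration, and loss of SPRY2 and Spred expression has been described in human hepatocellular carcinoma. Prolactin acts through a cytokine receptor and JAK2 and STAT5, and is not a ligand of a receptor tyrosine kinase.

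Each array compared total RNA of cultured mouse cells (Cy5) with Universal Mouse Reference RNA (Cy3), a pool from 11 mouse cell lines. AML12 cells are immortal hepatocytes from a mouse transgenic for a growth factor that binds the EGF receptor, whereas Hepa 1-6 cells come from a liver tumour. The labels nevertheless give hepatoma as the source of both lines. AML12 alone was maintained with dexamethasone and insulin, and both lines were kept overnight without serum or additives. Each line then had 3 groups of 2 arrays, which were serum-free controls, cells given 200 ng/mL of ovine pituitary prolactin for 8 h, and cells given 10 µg/mL of actinomycin D for 8 h. Actinomycin D blocks transcription by binding DNA. The series design calls the arrays of a group biological replicates, and each line is 1 established culture line, so the spread between arrays says nothing about other hepatocyte lines.

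Between 37397 and 40281 of 45018 features held a ratio on each array, and arrays of 1 group correlated at 0.975 to 0.985 across genes. Of 9 measured hepatocyte markers, 8 lay above the reference in AML12 controls and 9 in Hepa 1-6 controls, with albumin at log2 ratios of 4.24 and 4.30. All 7 fibroblast and stellate markers and all 4 measured leukocyte markers lay below it in both. Of 4 measured endothelial markers 1 lay above the reference in each line's controls. Of 4 measured biliary markers 3 lay above it in AML12 controls and 1 in Hepa 1-6 controls. The biliary keratin Krt19 stood at 4.07 in AML12 and -4.15 in Hepa 1-6 controls, and Krt7 and Sox9 were also higher in AML12. Epcam went the other way, at -4.83 in AML12 and -2.48 in Hepa 1-6 controls. These and other contrasts between the lines accompany the line differences below, and their part in them was not tested. The direction of the deposited ratio was not stated, and the hepatocyte markers above were read as placing the sample over the reference. All levels are log2 ratios to the reference RNA on the authors' scaling of each array. A level is therefore relative to the reference, and levels of different genes cannot be ranked. In these cultures, fewer expressing cells and less RNA per cell cannot be told apart.

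Promoter sequences are shown for Spry1, Spred1 and Spred2, since these genes were higher in Hepa 1-6 than in AML12 controls and lower after actinomycin D in Hepa 1-6. Spry4 had the same pattern, and its promoter is not shown. Each covers 250 bases before to 50 bases after the RefSeq start in build GRCm38.p6, 5′ to 3′ on the gene's strand, and capitals mark CpG dinucleotides. The intervals are chr3:37639697-37639996 on the plus strand for Spry1, chr2:117120821-117121120 on the plus strand for Spred1 and chr11:19924192-19924491 on the plus strand for Spred2.
Spry1: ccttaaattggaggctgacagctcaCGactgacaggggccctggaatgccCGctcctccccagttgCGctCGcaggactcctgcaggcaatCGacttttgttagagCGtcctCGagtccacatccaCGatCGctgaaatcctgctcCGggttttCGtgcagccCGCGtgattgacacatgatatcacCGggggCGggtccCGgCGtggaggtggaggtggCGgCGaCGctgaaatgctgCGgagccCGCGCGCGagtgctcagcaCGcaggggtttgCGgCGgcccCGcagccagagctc
Spred1: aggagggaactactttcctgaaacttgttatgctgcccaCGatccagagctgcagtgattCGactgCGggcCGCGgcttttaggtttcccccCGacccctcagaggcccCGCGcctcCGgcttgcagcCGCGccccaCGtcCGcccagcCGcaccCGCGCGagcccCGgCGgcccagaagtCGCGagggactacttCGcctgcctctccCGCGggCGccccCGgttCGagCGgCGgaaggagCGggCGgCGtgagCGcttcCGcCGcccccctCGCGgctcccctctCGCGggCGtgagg
Spred2: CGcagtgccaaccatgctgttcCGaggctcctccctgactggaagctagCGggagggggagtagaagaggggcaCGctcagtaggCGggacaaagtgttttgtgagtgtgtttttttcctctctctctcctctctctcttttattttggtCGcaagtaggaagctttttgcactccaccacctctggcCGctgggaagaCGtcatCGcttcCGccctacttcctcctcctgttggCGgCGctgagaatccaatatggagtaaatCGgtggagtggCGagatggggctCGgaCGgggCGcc

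The Spry1 promoter held 29 CpG dinucleotides, that of Spred1 40, that of Spred2 17, and that of Spry2, which is not shown, 28. The median over 21230 promoters of protein-coding genes was 13. Spred1 was the richest of these 4, with 94.9% of promoters holding fewer CpG, against 57.4% for Spred2. None of the 4 windows matched, on either strand, the ETS motif CCGGAAG (found in 11.6% of promoters), the AP-1 motif TGANTCA (6.99%), the cyclic AMP motif TGACGTCA (2.24%), the STAT motif TTCNNNGAA (7.69%), the E-box CACGTG (7.83%) or the CArG box (1.53%). The absence of a match says only that these letters do not occur in these windows.

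The first comparison set the controls of both lines side by side. Spry1, Spry4, Spred1 and Spred2 were all higher in Hepa 1-6, while the averaged value of Spry2 was lower there. All 5 members lay past the adjusted p threshold of 0.05 in the fit across all genes, against 61.9% of all genes, and the arrays of both lines did not overlap for any of the 5, against 81.0% of genes. All 9 features passed, against 59.6% of features. Nothing is read from these counts, since the choice of members used these values.

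Spry1, a feedback inhibitor best known from kidney development, stood at -1.06 and -1.02 in AML12 controls and at 1.48 and 1.58 in Hepa 1-6 controls. Both Hepa 1-6 arrays were above the reference and both AML12 arrays below it, and the fitted difference was 2.57 ± 0.10 (SE), or 5.96-fold. Spred1, whose human counterpart is mutated in Legius syndrome, stood at -0.83 and -0.95 in AML12 and 0.57 and 0.55 in Hepa 1-6, a difference of 1.45 ± 0.07. Spred2, the closest relative of Spred1 here, stood at -1.35 and -1.05 in AML12 and 0.82 and 0.83 in Hepa 1-6, a difference of 2.03 ± 0.13. All features of both Spred genes gave the same direction. Those of Spred1 differed by 1.06, 1.31 and 1.97, and those of Spred2 by 1.91 and 2.14.

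Spry4, an inhibitor that acts on RAF and on RAS activation, differed most. Its ratios were -5.38 and -4.98 in AML12 controls and 0.68 and 0.78 in Hepa 1-6 controls, a fitted difference of 5.91 ± 0.29. No background marks were used, so ratios as low as those in AML12 can lie at the detection floor and the size of this difference is uncertain. With exact zeros kept as a ratio of 1, which brings the second Spry4 feature into the mean, it was 3.35 and still passed. A second Spry4 feature held a ratio on only 5 of the 12 arrays. These were both Hepa 1-6 controls, at 1.39 and 0.19, both Hepa 1-6 prolactin arrays, at 1.31 and 1.65, and 1 AML12 prolactin array, at -0.02. It was exactly 0 on both AML12 control arrays and on all 4 actinomycin D arrays, which was taken as no ratio, and it entered no fit.

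Spry2, which binds GRB2 and the ubiquitin ligase CBL, was read by 2 features that disagreed. The feature annotated to the RefSeq transcript stood at 0.26 and 0.29 in AML12 controls and at 0.67 and 0.56 in Hepa 1-6 controls, which was higher in Hepa 1-6 by 0.34 ± 0.08. The feature annotated to an expressed sequence tag stood at -2.36 and -2.22 in AML12 and at -6.78 and -6.88 in Hepa 1-6, a difference of -4.54 ± 0.16. As for Spry4, ratios as low as those in Hepa 1-6 can lie at the detection floor, so the size of this difference is uncertain. The mean of both gave -2.10 ± 0.09, so its direction is that of the tag feature alone. With the feature of the highest mean ratio per gene, the difference was 0.34. Which feature reads the Spry2 transcript was not tested, and the averaged value is not a measure of it on which both agree.

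**Figure D1:**
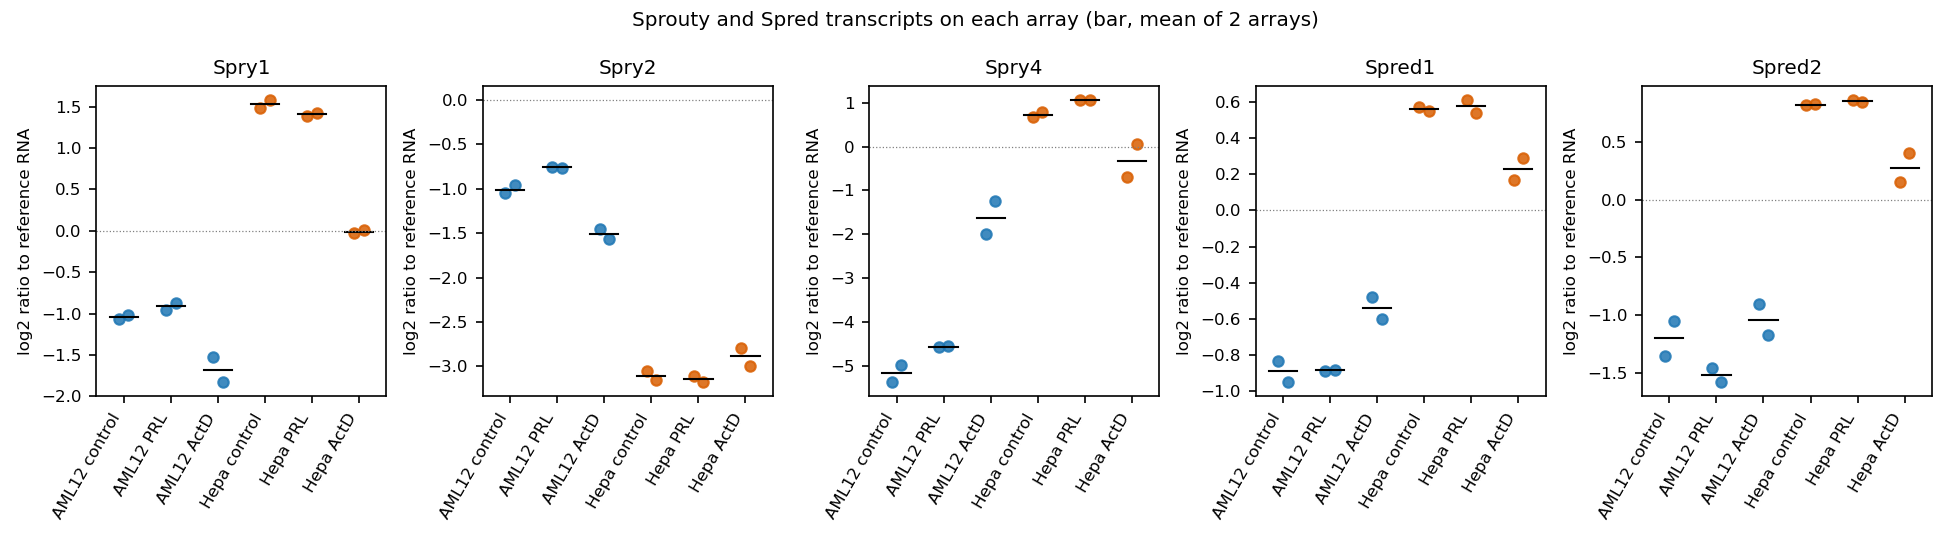
Log2 ratio to the reference RNA (y axis) of each member on every array, by group (x axis; PRL, prolactin; ActD, actinomycin D; Hepa, Hepa 1-6). Points are arrays, bars are means of 2 arrays, AML12 is blue and Hepa 1-6 orange, and each panel has its own scale. Spry4 runs from -5.38 to 1.06, and Spry2 is the mean of 2 features that disagree.

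**Figure D2:**
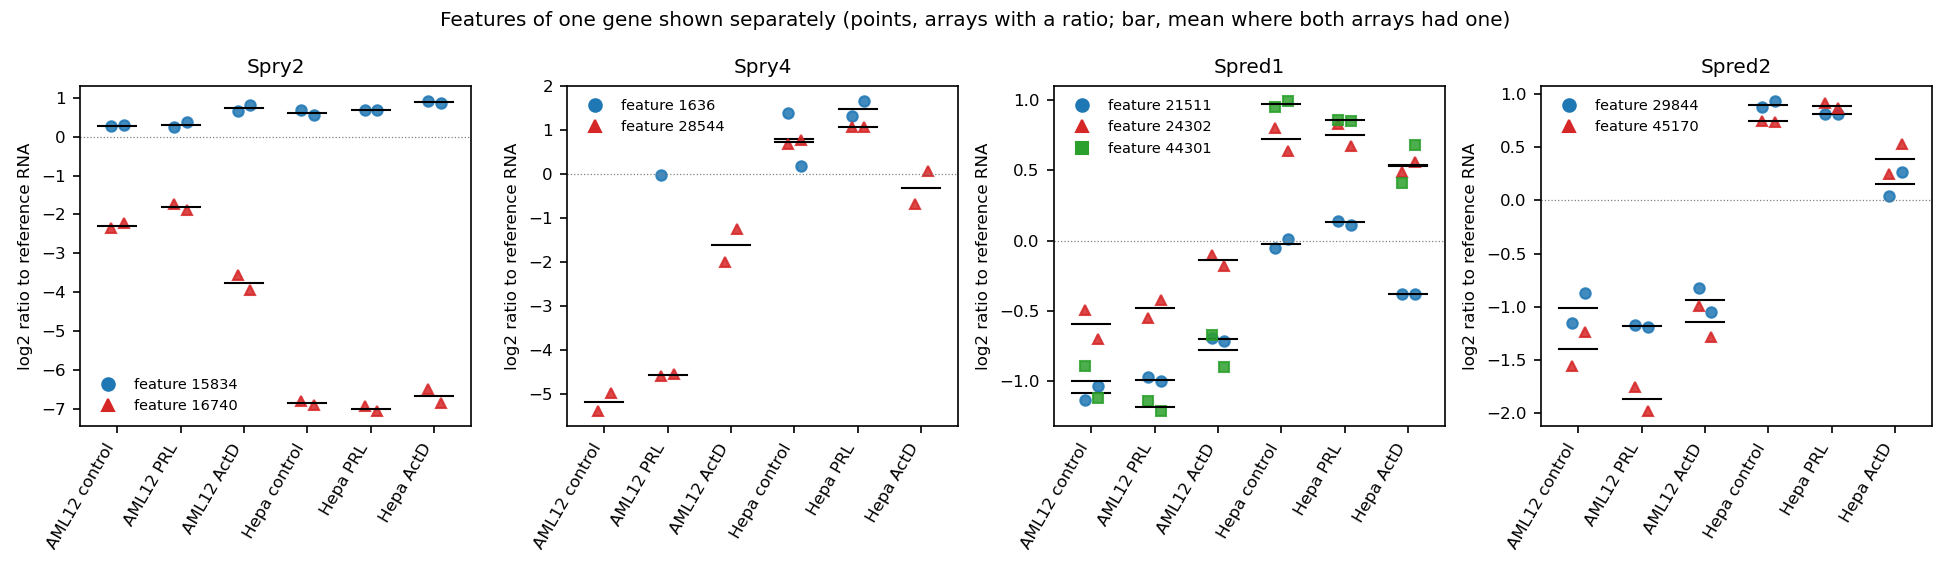
Log2 ratio to the reference RNA (y axis) of the separate features of Spry2, Spry4, Spred1 and Spred2 by group (x axis). Points are arrays with a ratio and bars are means where both arrays had one. The tag feature of Spry2 (16740) lies between -7.04 and -6.48 in Hepa 1-6 while the RefSeq feature (15834) lies between 0.56 and 0.90.

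The remaining family genes, Spred3 and Spry3, were not among the 5. Spred3 was higher in Hepa 1-6 controls by 1.36 ± 0.19 (limma, adjusted p = 0.00027). Spry3 differed by 0.64 ± 0.91 (limma, adjusted p = 0.58), and its 2 Hepa 1-6 control arrays, at -2.84 and -1.77, overlapped with the AML12 controls at -3.21 and -2.69.

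The cascade around these inhibitors was followed in 103 listed genes, of which 93 had a ratio on all arrays. The lists, which include Spred3 and Spry3, were chosen with earlier results of these data known. Their shares and adjusted p-values are therefore a description and no independent test. In controls 41 of the 93 genes were higher in Hepa 1-6 and 24 lower, or 69.9%, against 32.1% higher and 29.8% lower of all genes. Among 13 ERK-responsive genes 11 were higher and 0 lower in Hepa 1-6, with a median difference of 1.30. Phlda1, an ERK-induced gene, was higher by 4.77 ± 0.15 (limma, adjusted p = 4.5e-08) and Etv4, an ETS factor gene downstream of FGF signalling, by 3.96 ± 0.14 (limma, adjusted p = 1e-07). Of 16 other inhibitors of the cascade 8 were higher and 0 lower, led by Lrig3 at 3.96 ± 0.09 (limma, adjusted p = 9.4e-09) and the ERK phosphatase gene Dusp4 at 3.55 ± 0.07 (limma, adjusted p = 7.2e-09). Receptors went both ways, 4 higher and 6 lower of 14. Igf1r differed by -4.45 ± 0.12 (limma, adjusted p = 2.1e-08) and Fgfr2 by -3.71 ± 0.07 (limma, adjusted p = 4.3e-09). Pdgfra was higher by 1.84 ± 0.09 (limma, adjusted p = 7.6e-07) and Fgfr1 by 1.08 ± 0.10 (limma, adjusted p = 2e-05). Igf1r in Hepa 1-6 (-4.21) and Pdgfra in Hepa 1-6 (-4.08) and AML12 (-5.92) may lie at the floor, so these sizes are uncertain.

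The next comparison asked what prolactin did to these inhibitors. None of the 5 members passed the threshold in limma in either line, against 1.27% of all genes in AML12 and 0.0363% in Hepa 1-6. At an unadjusted p under 0.05 there were 2 members in AML12 (16.9% of all genes) and 0 in Hepa 1-6 (8.21%). Feature by feature, 0 of 9 passed in AML12 (2.19% of all features) and 0 of 9 in Hepa 1-6 (0.0140%).

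In AML12 the differences with prolactin ran from -0.32 for Spred2 to 0.61 for Spry4. Spry1 stood at -0.96 and -0.87 with prolactin, a difference of 0.13 ± 0.10. Spry4 stood at -4.58 and -4.55, above both controls, a difference of 0.61 ± 0.29 on very low ratios (0.30 with exact zeros kept). Spred1 at -0.89 and -0.88 lay within the range of its controls, with a difference of 0.01 ± 0.07. Spred2 at -1.46 and -1.58 lay below both controls, by -0.32 ± 0.13. The Spry2 mean was higher by 0.25 ± 0.09, which came from the tag feature at 0.48 ± 0.16 and not from the RefSeq feature at 0.03 ± 0.08. Treated and control arrays were apart for 4 of 5 members, against 48.8% of all genes.

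In Hepa 1-6 the responses were of similar or smaller size. Spry1 at 1.39 and 1.43 lay below both controls, by -0.13 ± 0.10. Spry4 stood at 1.06 on both arrays, above both controls, a difference of 0.33 ± 0.29 (0.51 with exact zeros kept). Spred1 at 0.61 and 0.54 surrounded its controls, with a difference of 0.02 ± 0.07, and Spred2 at 0.86 and 0.84 differed by 0.03 ± 0.13. The Spry2 mean differed by -0.04 ± 0.09. Arrays were apart for 3 of 5 members, against 43.2% of genes. The lines' responses to prolactin differed past the threshold for 0 of 5 members, against 0.121% of genes, and 1 had an unadjusted p under 0.05 (10.9% of genes). By feature it was 0 of 9 (0.132% of features).

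Among the pathway genes, 6 rose and 1 fell of 93 with prolactin in AML12, or 7.53%, against 0.719% higher and 0.550% lower of all genes. The lists were chosen with earlier results of these data known, so this share and the adjusted p-values below are a description. The EGF receptor ligand gene Hbegf rose by 0.54 ± 0.08 (limma, adjusted p = 0.029), its receptor gene Egfr by 0.51 ± 0.07 (limma, adjusted p = 0.022) and the adaptor gene Gab1 by 0.53 ± 0.09 (limma, adjusted p = 0.043). Dusp4 rose by 0.50 ± 0.07 (limma, adjusted p = 0.030), and Plaur, an ERK-responsive gene, by 0.57 ± 0.10 (limma, adjusted p = 0.045). Ier3, an early response gene, rose by 0.95 ± 0.15 (limma, adjusted p = 0.036). Errfi1, which encodes an inhibitor of the EGF receptor, fell by 0.69 ± 0.11 on the log2 scale (limma, adjusted p = 0.031). Of these 93 genes, 0 passed in limma on the 6 AML12 arrays, on the 4 compared arrays or with a replicate block. Without 1 array the count ran from 0 to 6, being 0 without either AML12 control or either Hepa 1-6 prolactin array, 1 without either Hepa 1-6 control, and 2 without either AML12 prolactin or either Hepa 1-6 actinomycin D array. In Hepa 1-6 none of the 93 passed in limma, and 10 had an unadjusted p under 0.05.

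The comparisons with actinomycin D asked how these transcripts stood when new transcription was blocked. The values are relative to other transcripts on the same array, and the median difference over all genes was 0.04 in AML12 and 0.07 in Hepa 1-6. In AML12 Spry4 and Spred1 were higher, Spry1 and the Spry2 mean lower, and Spred2 close to its controls. In Hepa 1-6 Spry1, Spry4, Spred1 and Spred2 were all lower. Of the 5 members 4 passed in each line, against 53.6% of all genes in AML12 and 50.9% in Hepa 1-6. Treated and control arrays were apart for 4 members in AML12 (77.1% of genes) and 5 in Hepa 1-6 (76.0%). The choice of members used these contrasts, so nothing is read from the counts. By feature, 6 of 9 passed in AML12 (54.6% of features) and 6 of 9 in Hepa 1-6 (50.2%). The treatments share their controls within a line, so the prolactin and actinomycin D differences are not independent.

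**Figure D3:**
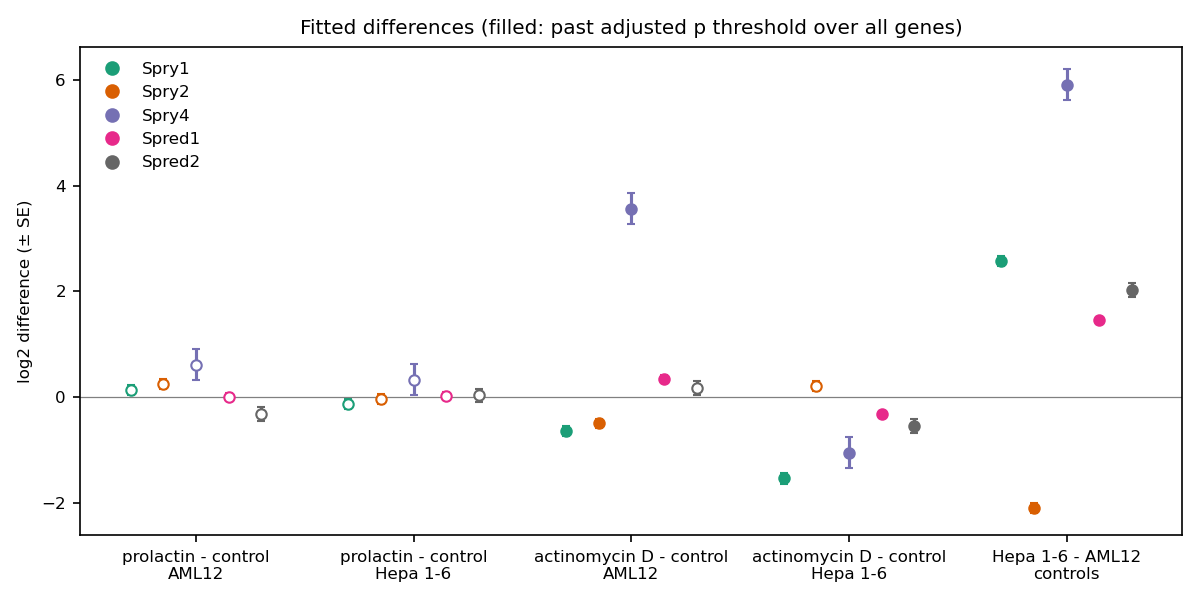
Fitted log2 difference with its standard error (y axis) of the 5 members in the treatment comparisons and between the controls of both lines (x axis). Filled points passed the adjusted p threshold over all genes. With actinomycin D, Spry4 lies at 3.56 in AML12 and -1.05 in Hepa 1-6, and no point is filled for prolactin.

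Spry4 rose in AML12 from -5.38 and -4.98 in controls to -2.00 and -1.25 with actinomycin D. Both treated arrays lay above both controls, by 3.56 ± 0.29 on the log2 scale, although the treated arrays were themselves unequal and the controls lay in the range where ratios are uncertain. With exact zeros kept as a ratio of 1 the difference was 1.78 and still passed. The second feature was 0 on all of these AML12 arrays. Keeping it only scaled down the difference and its spread, so this pass is no separate check. In Hepa 1-6 Spry4 was at -0.69 and 0.06 with actinomycin D, below controls at 0.68 and 0.78, a difference of -1.05 ± 0.29. That call was lost without either Hepa 1-6 control (-1.1 and -1.0) and without the first actinomycin D array (-0.67). The second Spry4 feature gave a ratio on both Hepa 1-6 controls and on neither actinomycin D array of that line. On the AML12 actinomycin D arrays, where the tested feature was higher, it gave no ratio either.

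Spry1 was lower in both lines. In AML12 it went from -1.06 and -1.02 to -1.53 and -1.83, a difference of -0.64 ± 0.10 (-0.37 after quantile normalization). In Hepa 1-6 it went from 1.48 and 1.58 to -0.03 and 0.01, a difference of -1.54 ± 0.10, or 2.91-fold lower. Treated and control arrays did not overlap in either line, and with actinomycin D the Hepa 1-6 level was still above every AML12 level.

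Spred1 went opposite ways. In AML12 it stood at -0.48 and -0.60 with actinomycin D, above controls at -0.83 and -0.95, by 0.35 ± 0.07 (0.66 after quantile normalization). In Hepa 1-6 it stood at 0.17 and 0.29, below controls at 0.57 and 0.55, by -0.33 ± 0.07. With the highest feature per gene that difference was -0.19 and did not pass. Its 3 features gave 0.38, 0.45 and 0.22 in AML12 and -0.36, -0.19 and -0.43 in Hepa 1-6, so all had the same sign within a line, and 2 of the 3 passed in each line.

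Spred2 at -0.90 and -1.17 overlapped with its controls in AML12, where the difference was 0.17 ± 0.13 and passed only after quantile normalization (0.51). In Hepa 1-6 it stood at 0.15 and 0.40 against 0.82 and 0.83, a difference of -0.55 ± 0.13. That call was lost without the first actinomycin D array (-0.42). The features of Spred2 gave -0.75 and -0.35 in Hepa 1-6, and the second of these did not pass by itself.

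The features of Spry2 disagreed again. With actinomycin D the RefSeq feature rose in AML12 to 0.66 and 0.81, by 0.46 ± 0.08, while the tag feature fell to -3.55 and -3.95, with a difference of -1.47 ± 0.16. Their mean gave -0.50 ± 0.09, and the highest feature alone reversed it to 0.46. In Hepa 1-6 the RefSeq feature stood at 0.90 and 0.85, higher by 0.26 ± 0.08, and the tag feature differed by 0.17 ± 0.16 at ratios below -6. The mean there was higher by 0.21 ± 0.09 and did not pass, but passed after median centring (0.25) and without the second actinomycin D array (0.32). On the RefSeq feature Spry2 was thus higher than in controls in both lines, the opposite of Spry1.

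The difference between the lines' responses to actinomycin D, taken as Hepa 1-6 minus AML12, was -4.61 ± 0.41 for Spry4, -0.90 ± 0.13 for Spry1, -0.68 ± 0.10 for Spred1 and -0.72 ± 0.19 for Spred2. For these 4 the response was lower in Hepa 1-6. The size for Spry4 rests on AML12 control ratios that may lie at the floor, and with exact zeros kept it was -2.70. The Spry2 mean gave 0.72 ± 0.12, from the tag feature at 1.63 ± 0.23, whereas the RefSeq feature gave -0.20 ± 0.11. The very low Hepa 1-6 ratios of the tag feature may also lie at the floor, where a fall might not show. All 5 gene values passed, against 30.0% of all genes, and 7 of 9 features, against 29.6% of features. Nothing is read from these counts, since the members were chosen with these differences known. The Spred2 call was lost without the first AML12 control (-0.57), the first AML12 actinomycin D array (-0.58), either Hepa 1-6 control (-0.73 and -0.71) or the first Hepa 1-6 actinomycin D array (-0.59), and also in a fit of the compared groups only (-0.72). Spred3 had no such call, with 0.53 ± 0.19 in AML12 (limma, adjusted p = 0.043), 0.10 ± 0.19 in Hepa 1-6 and a difference of -0.43 ± 0.26 (limma, adjusted p = 0.27). Spry3 stood at -3.39 and -0.68 on its AML12 actinomycin D arrays and passed in neither line.

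Of the 93 pathway genes 21 rose and 34 fell with actinomycin D in AML12, against 28.0% higher and 25.5% lower of all genes. After median centring 27 rose and 32 fell, against 35.3% higher and 20.6% lower of all genes. In Hepa 1-6 18 rose and 26 fell, against 27.9% and 23.0%. As the lists were chosen with earlier results known, these shares and the adjusted p-values below are a description. Dusp6, which encodes another ERK-induced inhibitor, fell by 2.64 ± 0.09 on the log2 scale in AML12 (limma, adjusted p = 3.7e-07) and fell by 2.79 ± 0.09 in Hepa 1-6 (limma, adjusted p = 9.6e-07), unlike Spry4 in AML12. Errfi1 fell by 3.71 ± 0.11 in AML12 (limma, adjusted p = 2.3e-07) and fell by 0.94 ± 0.11 in Hepa 1-6. With actinomycin D in AML12, Dusp6 at -4.68 and Errfi1 at -4.19 may lie at the floor, so the sizes of these falls are uncertain. Lrig1, which encodes a further receptor inhibitor, rose by 1.26 ± 0.06 in AML12 (limma, adjusted p = 2.3e-06) and by 0.41 ± 0.06 in Hepa 1-6. Among ERK-responsive genes 2 rose and 7 fell of 13 in AML12, and 3 rose and 5 fell in Hepa 1-6. Maff rose in both, by 1.56 ± 0.09 and 0.97 ± 0.09, and Phlda1 fell by 0.83 ± 0.15 in AML12 and fell by 2.36 ± 0.15 in Hepa 1-6.

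**Figure D4:**
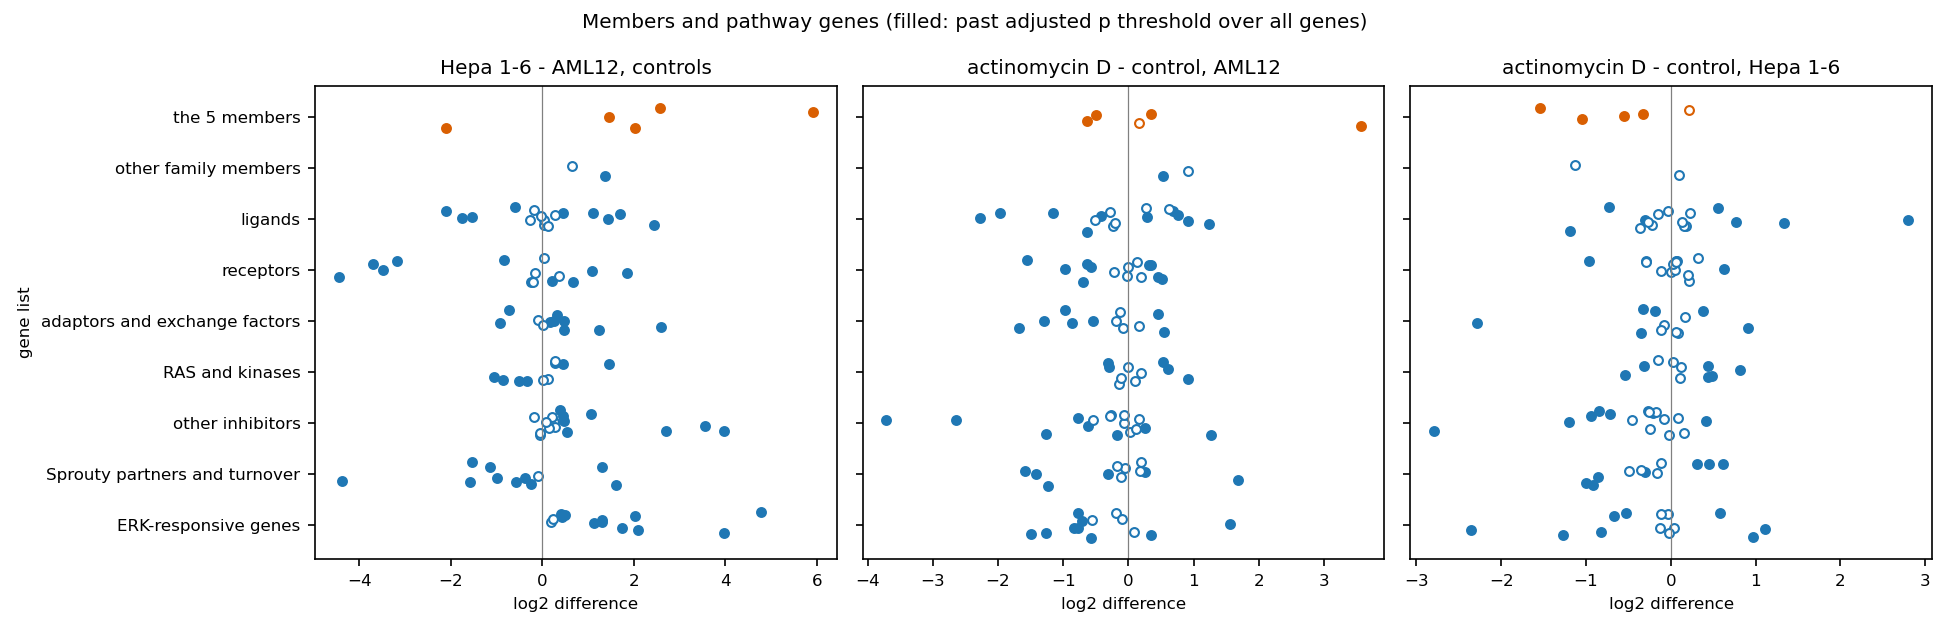
Log2 differences (x axis) of the 5 members and of the genes of each pathway list (y axis; vertical scatter within a list has no meaning) for the controls of both lines and for actinomycin D in each line. Filled points passed the adjusted p threshold over all genes. In the ERK-responsive list 11 of 13 genes are filled on the right for the controls, and 7 on the left for actinomycin D in AML12.

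Over all 6 groups the order of Spry1 levels was Hepa 1-6 control, prolactin and actinomycin D, then AML12 prolactin, control and actinomycin D, and no neighbours in that order had overlapping arrays. Spry4 followed the same order in Hepa 1-6 except that prolactin was highest. In AML12 its actinomycin D level was highest and its control level lowest. Neighbouring groups of Spry4 did not overlap either. Such separation was common, since prolactin and control arrays were apart for 48.8% of all genes in AML12 and 43.2% in Hepa 1-6. For actinomycin D and control arrays the shares were 77.1% and 76.0%. No share over all genes was taken for the other neighbouring pairs or for all neighbours at once. Nothing is therefore read from the separation of neighbours. No prolactin difference of Spry1 or Spry4 passed the threshold, so the order of prolactin and control is a description only. For Spred1 the prolactin and control arrays overlapped within each line, for Spred2 the AML12 actinomycin D and control arrays did, and for the Spry2 mean the Hepa 1-6 control and prolactin arrays did. All 4 genes had their 3 highest groups in Hepa 1-6, and the Spry2 mean had its 3 highest in AML12.

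Within a line the members ran together or apart, as Pearson correlations over 6 arrays that share controls and treatments. In Hepa 1-6 Spry1, Spry4, Spred1 and Spred2 correlated at 0.900 to 0.992 with each other, and the Spry2 mean at -0.957 to -0.844 with them. In AML12 Spry1 correlated at -0.937 with Spry4 and -0.873 with Spred1, while Spry4 and Spred1 correlated at 0.901. The Spry2 mean there correlated at 0.972 with Spry1, -0.871 with Spry4 and -0.885 with Spred1. Spred2 correlated more weakly, at -0.630 with Spry1, -0.726 with the Spry2 mean, 0.531 with Spry4 and 0.605 with Spred1. These values mostly set the actinomycin D arrays against the rest and describe the pattern without a test.

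The genes most like each member over the 12 arrays followed the contrast between the lines. By Pearson correlation they were Znrd2, Cln3 and Anp32b for Spry1 (0.993 to 0.994), Unc79, Plpp1 and Pls3 for Spry4 (0.985 to 0.988) and Abcb9, Lifr and Pank3 for Spred1 (0.994 to 0.998). For Spred2 they were Pir, Arsb and Mthfd2 (0.990 to 0.991). For the Spry2 mean, which follows its tag feature, they were Krt8, Mtcl1 and Usp43 (0.995 to 0.997). All 12 of the genes named for Spry1, Spry4, Spred1 and Spred2 were higher in Hepa 1-6 than in AML12 controls, and the 3 named for Spry2 were lower. They were picked by correlation over these same arrays, which include that contrast, so their shared direction follows from the choice and nothing is read from it.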

How the data were processed

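The deposited values were log10 ratios of sample over reference per feature, made by the authors. Per the submitters' processing notes, Agilent Feature Extraction was used. Log base and direction were not given in the sources used, and base 10 was taken from the range of -3.12 to 2.94. Each value was multiplied by 3.32 to give log2. An exact 0 was taken as no ratio. Features with 1 gene symbol and a ratio on all 12 arrays were averaged per gene, which left 16549 genes. The 6 group means were fitted with limma 3.58.1 in R 4.3.3 (lmFit and eBayes, 6 residual degrees of freedom), and p-values were adjusted by Benjamini-Hochberg over all genes with a threshold of 0.05. The fit was tried on simulated data with planted changes, for prolactin in AML12 only. The simulated spread was independent between arrays, so this trial says nothing about exact zeros or deviations that arrays share. The members and pathway lists were chosen with earlier results of these data known. Besides the members, the text names up to 2 rises and 2 falls per pathway list and comparison, and the 3 genes best correlated with each member. The genes flagged below for a closer look do not keep to this limit. Errfi1 in Hepa 1-6 and Phlda1 in AML12 were added, after their values were seen, to set both lines side by side. Promoters are from RefSeq (GRCm38.p6). With 2 arrays per group, their number limits the precision.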

Additional observations from a re-analysis of the deposited data

Results flagged for a closer look

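The response to actinomycin D differed between the lines, by the interaction term in limma with an adjusted p under 0.05, for each gene listed here. Differences are log2, Hepa 1-6 minus AML12. For the members, chosen with these values known, they are a description. They were -0.90 for Spry1, 0.72 for the Spry2 mean, -4.61 for Spry4, -0.68 for Spred1 and -0.72 for Spred2. The Spry2 value has the opposite sign on its RefSeq feature, at -0.20.

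Of the 93 pathway genes, 23 passed with a higher and 17 with a lower difference, against 17.2% and 12.8% of all genes. After median centring they were 19 and 20, against 13.9% and 16.0%. The lists were chosen with earlier results known, so these shares are a description. Only some of the genes that passed are named here. Among ligands, receptors and adaptors, the difference was 2.52 for Hbegf, 1.57 for Btc, -0.52 for Egfr, 0.63 for Fgfr2 and 1.20 for Gab1. Among inhibitors it was 2.77 for Errfi1, -0.85 for Lrig1 and -0.58 for Lrig3. Among ERK-responsive genes it was 2.37 for Ier3, 0.66 for Plaur, -1.53 for Phlda1 and -0.59 for Maff. Among Sprouty partners it was -1.22 for Cav1, -0.81 for Tesk1, -0.51 for Nedd4, 0.37 for Lgals3 and 1.23 for Siah1a. The sizes for Cav1 and Errfi1 rest in part on ratios that may lie at the floor.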

How the results depend on the processing

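Over 35 member differences, the alternatives left 788 values on the same side of the threshold, 21 fell short of it, 4 newly passed and 3 reversed. Reversals were counted only for differences that had passed. The 3 counted were Spry2 with the highest feature per gene, at 0.46 for actinomycin D in AML12, 0.34 between controls and -0.20 for the line difference under actinomycin D. Differences that had not passed also changed sign in places. With the highest feature per gene, the Spry2 line difference under prolactin went from -0.29 to 0.05, and Spred2 with prolactin in Hepa 1-6 from 0.03 to -0.10. In the AML12 actinomycin D comparison, centring each array on its median shifted the typical gene by 0.11. Keeping exact zeros as a ratio of 1 left the Spry4 calls in place and brought its differences to 3.35 between controls, 1.78 for actinomycin D in AML12 and -2.70 for the line difference. On the AML12 control and actinomycin D arrays the second Spry4 feature was 0 throughout, so the 1.78 is no separate check. Members past the threshold fell to 2 (actinomycin D in AML12), 3 (controls) and 3 (line difference under actinomycin D) without the lowest 20% of mean ratios, where fewer members were tested. At 2-fold or more they were 1 and 2 for actinomycin D in AML12 and Hepa 1-6 and 1 for the line difference. Leaving out 1 array gave 2 to 5 members for actinomycin D in Hepa 1-6, with 2 without its first actinomycin D array.

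For prolactin in AML12, pathway genes past the threshold numbered 7, and 0 with a replicate block, the line's arrays only, the compared groups only or at 2-fold, and 0 to 6 without 1 array. All genes numbered 210, then 49 with the block, 0 and 0 on fewer arrays, 780 features, 29 at 2-fold and 30 to 183 without 1 array. At an unadjusted p under 0.05 there were 2796. For prolactin in Hepa 1-6 the count of 6 became 3 with partial ratios, 0 with the highest feature, the block, the line's arrays or the compared groups, 1 at 2-fold and 1 to 13 without 1 array, with 1359 unadjusted. For the line difference under prolactin, pathway genes went from 0 to 1 with median centring and 1 without low ratios. All genes went from 20 to 36 with centring, 13 with zeros kept, 31 without low ratios, 7 with the block, 11 with the compared groups, 47 features and 3 to 25 without 1 array.

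Without low ratios, pathway genes were 35 for actinomycin D in AML12 and 26 for the line difference. At 2-fold they were 18 and 10 for actinomycin D in AML12 and Hepa 1-6, 36 between controls and 13 for the line difference. All genes at 2-fold were 2013, 1655, 4122 and 1351 in the same order, and features tested singly gave 19488, 17906, 21244 and 10545. Deviations of equally numbered arrays within a line correlated at 0.008 to 0.159, so the numbers were not taken as pairs, and the replicate block left the members' counts as they were. The cause of these changes was not tested beyond the smaller number of arrays or genes stated. Each group had 2 arrays, no background marks were used, and very low ratios are imprecise.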

Other observations

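Of 11 Sprouty partner and turnover genes, 2 were higher and 8 lower in Hepa 1-6 than in AML12 controls, against 32.1% higher and 29.8% lower of all genes. This list too was chosen with earlier results known, so its share and adjusted p-values are a description. Cav1, which encodes caveolin-1 and whose product binds Sprouty proteins, differed by -4.37 ± 0.07 (limma, adjusted p = 2.7e-09). Its level in Hepa 1-6 controls was -4.93, which can lie at the detection floor, so the size of this difference is uncertain. Nedd4, a ubiquitin ligase gene, differed by -1.59 ± 0.10 (limma, adjusted p = 2.1e-06). The higher genes were Siah2, encoding another ubiquitin ligase, at 1.60 ± 0.14 (limma, adjusted p = 1.9e-05), and the kinase gene Tesk1 at 1.31 ± 0.07 (limma, adjusted p = 7.1e-07). With actinomycin D, Siah2 fell in AML12 by 1.41 ± 0.14 and in Hepa 1-6 by 1.00 ± 0.14 on the log2 scale, and Cav1 rose by 1.68 ± 0.07 and 0.45 ± 0.07. The rise of 0.45 in Hepa 1-6 started from that very low Cav1 level, so its size is uncertain too.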
